A study of Mus musculus with 6 samples.

Results

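The 9 genes Ccr7, Klf2, S1pr1, Tcf7, Lef1, Bach2, Satb1, Il7r and Id3, which naive and resting T cells express at a high level, were followed in regulatory T (Treg) cells of mice with and without a Cdc42 knockout. They were taken by symbol from the 14608 genes that both deposited tables list, and all 9 were found there. All 9 also passed the filter on low values that left 12233 genes for testing. Treg cells are the CD4 T cells that carry the transcription factor Foxp3 and restrain immune responses, and Cdc42 is a small GTPase that organises the actin cytoskeleton. The genotypes sequenced were wild type (WT), Cdc42+/- (heterozygous knockout) and Cdc42-/- (homozygous knockout), with 2 libraries each. The series' design text counts 2 mice per genotype, and which mouse gave which library is not stated. Cells of all 3 genotypes came from spleen and were sorted as CD4+YFP+ after magnetic enrichment of CD4+ cells. The gene that drives the YFP reporter, the kind of knockout allele, and the age, sex and strain of the mice are not given in the sources used here.

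A T cell that has not met its antigen, or that has returned to rest, circulates between blood, spleen and lymph nodes. Ccr7 is the receptor for the chemokines Ccl19 and Ccl21, which draw the cell into the T cell zones, and S1pr1 senses the sphingosine-1-phosphate gradient by which it leaves again. Klf2 is a zinc-finger transcription factor that activates S1pr1 and is itself under the control of Foxo1. Tcf7 and Lef1 encode HMG-box factors that bind beta-catenin and Groucho corepressors, Bach2 is a repressor of effector genes such as Prdm1, and Satb1 is an organiser of chromatin. Il7r is the receptor chain for the survival cytokine IL-7, which Treg cells usually carry at a lower level than other CD4 T cells. Id3 binds E proteins and keeps them off DNA. Resting, or central, Treg cells carry these genes, and effector Treg cells lower many of them while raising genes such as Prdm1, Id2, Icos and Itgae.

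The 6 libraries held between 8556576 and 17796100 reads in genes, and values below are RPKM, reads scaled to gene length and library size. Cdc42 itself lay between 122 and 173 RPKM in all 6 libraries, with the lowest value in the library labelled Cdc42-/- replicate 1 and the highest in that labelled Cdc42-/- replicate 2, and did not pass the test in Cdc42-/- against WT (log2 fold change -0.17, limma adjusted p = 0.550). A per-gene value cannot show the loss of part of a gene, so this does not check the genotype labels. Foxp3 lay between 58.4 and 131 RPKM in every library, and none of the 11 T cell markers was at 0. Both Cdc42-/- libraries held less T cell marker RNA than the others, with 2255 RPKM summed over the 11 markers in replicate 1 and 1727 in replicate 2, against 2773 to 2843 in the WT and Cdc42+/- libraries. The second Cdc42-/- library also stood apart in its myeloid markers, which summed to 1410 RPKM over 13 genes against 13.6 to 44.1 in the other 5 libraries. Plasma cell markers summed to 202 RPKM there, 122 and 104 in the Cdc42+/- libraries and 34.8 to 43.1 in the other 3, while 7 B cell markers summed to 11.4 to 22.4 in every library. Erythroid markers (4 found) summed to 6.74 and 30.9 RPKM in the Cdc42-/- libraries against 0.478 to 1.14 in the other 4, with 1 of the 4 genes called higher.

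The libraries also differed in genes that mark sex. Xist, expressed from the inactive X chromosome of females, was at 0.199 and 1.13 RPKM in the WT libraries, and the Y-linked gene Ddx3y at 37.7 and 42.4. The Cdc42+/- libraries had 99.3 and 93.3 RPKM of Xist with 0.126 and 0 of Ddx3y, and Cdc42-/- replicate 1 had 87.4 and 0.0974. Replicate 2 of Cdc42-/- held both, with 21.2 of Xist and 27.5 of Ddx3y. In comparisons with WT, genotype and this male-female difference therefore cannot be told apart. Cdc42+/- and Cdc42-/- replicate 1 share the Xist-high pattern, so their comparison is the one within it. Results for the 9 genes that rest on Cdc42-/- replicate 2 are given with and without it. Whether replicate libraries were prepared together is not stated, so p-values measure the spread between these libraries. In such sorted samples, fewer cells of a type and less RNA per cell cannot be told apart.

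All 9 genes were well expressed in WT Treg cells. In order of mean RPKM per length, Tcf7 was highest (269 ± 7.63, SD, n = 2), followed by S1pr1 (139 ± 7.85), Klf2 (122 ± 1.08), Ccr7 (113 ± 4.17), Id3 (69.7 ± 8.58), Il7r (61.3 ± 0.685), Lef1 (59.1 ± 3.97), Satb1 (48.2 ± 0.118) and Bach2 (19.2 ± 1.19). The WT libraries of each gene lay apart from those of the next gene in this order except for Il7r and Lef1, which overlapped. Tcf7 exceeded 98.9% of all 14608 listed genes in WT, Satb1 90.2% and Bach2 72.5%.

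Among these genes, Cdc42-/- libraries differed from WT in both directions. Klf2 and Satb1 rose in Treg cells labelled Cdc42-/-, Id3 fell, and the other 6 did not pass the test at an adjusted p of 0.05. That is 3 of 9 called, beside 11.4% of all tested genes in Cdc42-/- against WT, of which 6.86% were called higher and 4.57% lower. The median log2 fold change of the 9 genes was -0.13, and that of all tested genes was 0.01. Libraries of both genotypes did not overlap for 5 of the 9 genes, 2 higher and 3 lower, beside 56% of all tested genes. The authors' deposited table, which rests on another test, put the same 3 genes past an adjusted p of 0.05, with a smallest adjusted p of 4.10e-06 for Id3, beside 8.66% of its genes.

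**Figure D1:**
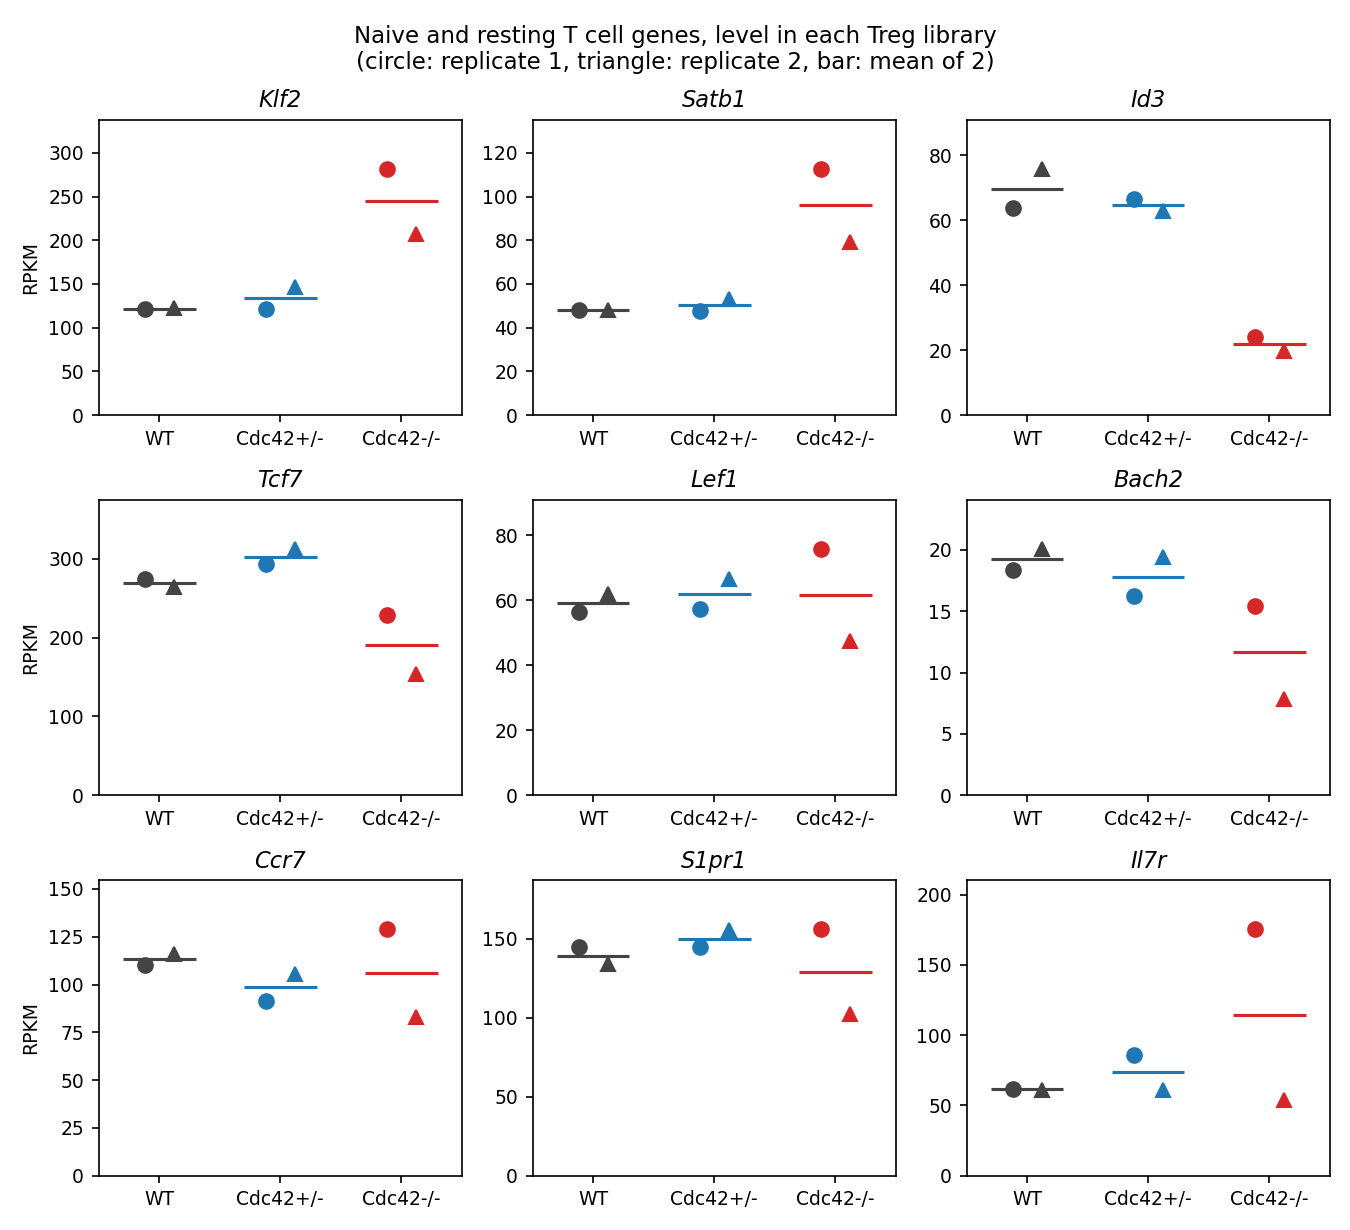
RPKM of each of the 9 genes (y axis, linear from 0) in the 2 libraries of WT, Cdc42+/- and Cdc42-/- (x axis). Circles are replicate 1, triangles replicate 2 and bars the mean of 2. In Klf2 and Satb1 both Cdc42-/- libraries sit above the other 4, in Id3 both sit below them, and in every gene replicate 2 of Cdc42-/- sits below replicate 1.

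Klf2 (gene ID 16598; mm10 chromosome 8, 72319062 to 72321654) measured 121 and 122 RPKM in WT cells, 122 and 146 in heterozygous cells and 282 and 207 in homozygous knockout cells. Both Cdc42-/- values lay above all 4 others, and those 4 lay between 121 and 146. The mean rose from 122 ± 1.08 in WT to 244 ± 52.8 in Cdc42-/- (SD, n = 2 each), a ratio of 2.01. On the log2(RPKM + 1) scale used for all fold changes here, the difference was 0.98 (SE 0.17, 95% interval 0.56 to 1.40, limma adjusted p = 0.0192). Against Cdc42+/- it was 0.85 (adjusted p = 0.0378, limma).

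Satb1 (gene ID 20230; chromosome 17, 51736187 to 51833290), which shapes chromatin loops in developing T and Treg cells, measured 48.3 and 48.1 RPKM in WT cells, 47.5 and 53.2 in heterozygous cells and 113 and 79.4 in homozygous knockout cells. Its libraries fell in the same pattern as those of Klf2, with both Cdc42-/- libraries above the rest and the first above the second. The log2 fold change was 0.96 against WT (95% interval 0.53 to 1.38, limma adjusted p = 0.0223, ratio 1.99) and 0.90 against Cdc42+/- (adjusted p = 0.0338). Over the 6 libraries Klf2 and Satb1 had a Pearson r of 0.995 on the log2 scale. This is a description of 6 points that share genotype and library.

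The calls of Klf2 and Satb1 against WT were made in 9 of 14 alternative analyses each, and their direction was the same in all 14. They were lost when a control library was left out, with limma adjusted p-values for Klf2 and Satb1 of 0.135 and 0.141 without WT replicate 1, 0.139 and 0.150 without WT replicate 2, 0.0566 and 0.0685 without Cdc42+/- replicate 1, and 0.0559 and 0.0684 without Cdc42+/- replicate 2. They were also lost when only the 2 genotypes entered the fit (0.0576 and 0.0695), where 4.38% of all genes were called against WT and 2.26% in the like fit against Cdc42+/-. The log2 fold changes there stayed between 0.96 and 0.99. Against Cdc42+/- both calls were lost without each of the same 4 libraries, with adjusted p-values from 0.104 to 0.273 for Klf2 and from 0.0957 to 0.252 for Satb1, and with only the 2 genotypes (0.107 and 0.0976). Without a Cdc42+/- library, calls against Cdc42+/- were lost for all tested genes. Klf2 was also lost against Cdc42+/- with a replicate block (0.0581) and upper-quartile scaling (0.0528). In that comparison 7 of 14 alternatives called Klf2 and 9 of 14 called Satb1. Leaving out Cdc42-/- replicate 2 gave 1.21 for both genes, and leaving out Cdc42-/- replicate 1 gave 0.76 for Klf2 and 0.71 for Satb1.

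Id3 (gene ID 15903; chromosome 4, 136143822 to 136145392), the inhibitor of E proteins, measured 63.6 and 75.7 RPKM in WT cells, 66.5 and 62.8 in heterozygous cells and 23.9 and 19.8 in homozygous knockout cells. Both Cdc42-/- libraries lay far below all others and close to each other. Id3 fell by 1.63 on the log2 scale against WT (SE 0.14, 95% interval -1.97 to -1.29, limma adjusted p = 0.00231), so that the WT mean was 3.19 times that of Cdc42-/-. Against Cdc42+/- it fell by 1.53 (limma adjusted p = 0.00808). Its log2 fold change against WT was -1.50 without Cdc42-/- replicate 2 and -1.76 without replicate 1. Of the 9 genes, Id3 was the one called against WT in all 14 alternatives, with adjusted p-values from 0.000209 to 0.0377. Its call against Cdc42+/- was lost without Cdc42+/- replicate 1 and without Cdc42+/- replicate 2. Those fits hold a lone heterozygous library, and calls against Cdc42+/- were lost there for all tested genes. Over the 14 alternatives the log2 fold change of Id3 against Cdc42+/- ran from -1.66 to -1.01.

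The sequences just upstream of these 3 genes are shown because they are the members called in Cdc42-/-, and because Klf2 is itself a factor that binds CACCC and GC-rich boxes. Each is the 250 bases before the annotated start, 5′ to 3′ on the gene's own strand, from RefSeq on GRCm38.p6, the assembly that mm10 names. They are Klf2 (plus strand, chr8:72318812-72319061), Satb1 at its outermost start (minus strand, chr17:51833291-51833540) and Id3 (plus strand, chr4:136143572-136143821). Capitals mark matches to the KLF motif CCNCNCCC on either strand, and neighbouring matches can overlap.
Klf2: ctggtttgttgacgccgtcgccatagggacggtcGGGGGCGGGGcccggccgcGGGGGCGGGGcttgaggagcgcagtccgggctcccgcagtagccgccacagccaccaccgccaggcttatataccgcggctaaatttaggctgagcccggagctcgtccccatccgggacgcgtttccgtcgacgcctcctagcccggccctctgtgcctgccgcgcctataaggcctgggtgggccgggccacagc
Satb1: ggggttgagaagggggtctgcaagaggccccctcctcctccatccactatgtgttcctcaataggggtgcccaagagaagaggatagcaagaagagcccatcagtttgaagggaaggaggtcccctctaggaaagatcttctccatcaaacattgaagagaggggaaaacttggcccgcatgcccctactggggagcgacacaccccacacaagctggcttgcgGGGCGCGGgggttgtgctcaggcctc
Id3: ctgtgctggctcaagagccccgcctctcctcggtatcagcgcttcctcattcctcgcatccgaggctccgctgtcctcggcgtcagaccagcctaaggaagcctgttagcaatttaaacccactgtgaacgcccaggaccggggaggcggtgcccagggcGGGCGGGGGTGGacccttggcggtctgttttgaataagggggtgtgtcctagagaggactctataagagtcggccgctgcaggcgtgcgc
Klf2 held 4 matches with 71.2% G and C, Satb1 held 1 with 58% and Id3 held 2 with 62.8%.

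RefSeq starts were matched for 7 of the 9 genes, with 15 windows among them, several of which overlap. A KLF match stood in 12 of the 15 windows, against 45.9% of the 32851 windows of all genes. By gene it stood in 5 of the 7, a count without a like share, since genes with several windows have more chances of a match. The windows of all genes had a median of 52.4% G and C, so G and C content differs between the windows compared. The STAT5 motif TTCNNNGAA, which is named for the factor that the IL-7 receptor activates, stood in 1 window each of Bach2 and Il7r (7.02% of all windows). The FOXO motif TGTTTAC (3.17% of all windows), the TCF/LEF motif CTTTGAT (3.21%) and the AP-1 motif TGANTCA (6.75%) stood in 0 of the 15. The E-box CAGGTG, the site type of E proteins, stood in 1 window, upstream of an inner start of Satb1 (17.2% of all windows). A match is a string of letters in these windows and not a measured binding site.

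Tcf7 (gene ID 21414; chromosome 11, 52246527 to 52283383), the factor TCF-1, measured 275 and 264 RPKM in WT cells, 293 and 312 in heterozygous cells and 228 and 153 in homozygous knockout cells. Both Cdc42-/- libraries lay below the other 4. The log2 fold change against WT was -0.52 (95% interval -0.98 to -0.06) and did not pass the test (limma adjusted p = 0.130), nor did the -0.69 against Cdc42+/- (adjusted p = 0.0804). Against WT it was -0.24 without Cdc42-/- replicate 2 (adjusted p = 0.10) and -0.81 without replicate 1 (adjusted p = 0.000782). Against Cdc42+/- both of these fits made a call, with -0.41 (adjusted p = 0.0245) and -0.97 (adjusted p = 0.000579), beside 14.9% and 34.8% of all genes. In such fits the lone Cdc42-/- library is assumed to vary like the other genotypes, and calls over all genes rose to 18.5% against WT without replicate 2 and to 36.2% without replicate 1. Tcf7 overlaps Skp1 in the annotation, and since the strand setting of the counting is not given, reads of both may have been shared.

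Lef1 (gene ID 16842; chromosome 3, 131110297 to 131224357), the relative of Tcf7, measured 56.3 and 61.9 RPKM in WT cells, 57.3 and 66.5 in heterozygous cells and 75.8 and 47.6 in homozygous knockout cells. The Cdc42-/- libraries lay on either side of all the others. Against WT the log2 fold change was 0.03 (95% interval -0.51 to 0.56, limma adjusted p = 0.952), an interval that leaves room for a change in either direction. It was 0.35 without Cdc42-/- replicate 2 (adjusted p = 0.0846) and -0.30 without replicate 1 (adjusted p = 0.0898).

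Bach2 (gene ID 12014; chromosome 4, 32238413 to 32586109), the lowest of the 9 genes, measured 18.4 and 20.1 RPKM in WT cells, 16.2 and 19.4 in heterozygous cells and 15.4 and 7.82 in homozygous knockout cells. The first Cdc42-/- library lay just below the lowest control and the second far below it. Its log2 fold change of -0.75 against WT (95% interval -1.45 to -0.04) did not pass the test (limma adjusted p = 0.152). It was -0.30 without Cdc42-/- replicate 2 (adjusted p = 0.221) and -1.19 without replicate 1 (adjusted p = 0.00173). Bach2 overlaps the annotated antisense gene Bach2os.

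Ccr7 (gene ID 12775; chromosome 11, 99144199 to 99155077) measured 110 and 116 RPKM in WT cells, 91.3 and 106 in heterozygous cells and 129 and 82.9 in homozygous knockout cells. Its Cdc42-/- libraries lay above and below all 4 others. Against WT it differed by -0.13 on the log2 scale (95% interval -0.64 to 0.38, limma adjusted p = 0.720). It was 0.19 without Cdc42-/- replicate 2 (adjusted p = 0.282) and -0.44 without replicate 1 (adjusted p = 0.0204).

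S1pr1 (gene ID 13609; chromosome 3, 115710433 to 115715055), a target of Klf2 in T cells, measured 145 and 134 RPKM in WT cells, 145 and 156 in heterozygous cells and 156 and 102 in homozygous knockout cells. Its libraries were not ordered as those of Klf2, since the first Cdc42-/- library lay with the highest controls and the second below all of them. The log2 fold change was -0.14 (95% interval -0.62 to 0.34, limma adjusted p = 0.676) against WT, whereas that of Klf2 was 0.98 in the same libraries. It was 0.16 without Cdc42-/- replicate 2 (adjusted p = 0.273) and -0.44 without replicate 1 (adjusted p = 0.0113). Against Cdc42+/- S1pr1 gave -0.25 (adjusted p = 0.454), with 0.055 without Cdc42-/- replicate 2 (adjusted p = 0.734) and -0.55 without replicate 1 (adjusted p = 0.00542).

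Il7r (gene ID 16197; chromosome 15, 9506159 to 9529941) measured 61.8 and 60.8 RPKM in WT cells, 86.0 and 61.1 in heterozygous cells and 175 and 53.9 in homozygous knockout cells. Cdc42-/- replicate 1 had the highest value of all 6 libraries and replicate 2 the lowest. With that spread the log2 fold change of 0.66 against WT had a 95% interval from -0.57 to 1.89 (limma adjusted p = 0.426). A single library decided its direction: it was 1.5 without Cdc42-/- replicate 2 (adjusted p = 0.00303) and -0.18 without replicate 1 (adjusted p = 0.469). Against Cdc42+/- it was 0.42 (adjusted p = 0.625), with 1.26 without Cdc42-/- replicate 2 (adjusted p = 0.00818) and -0.42 without replicate 1 (adjusted p = 0.120).

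The first and second Cdc42-/- libraries differed in the same direction for the whole group. All 9 genes were lower in replicate 2 than in replicate 1, with ratios from 0.307 for Il7r to 0.826 for Id3 and a median of 0.655, whereas 46% of all tested genes were lower there and their median ratio was 1.03. The 11 T cell markers were lower too (11 of 11, median ratio 0.735), as were the 5 Treg markers (5 of 5, median 0.684). This went with the myeloid marker sum of 1410 RPKM in replicate 2 against 35.0 in replicate 1, and the part of those cells in the difference was not tested.

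Set against the 11 T cell markers of the same library, the Cdc42-/- replicates came close together for the 3 called genes. Of those markers limma itself called 4 lower and 0 higher in Cdc42-/- against WT, beside 4.57% and 6.86% of all tested genes. As a percentage of the geometric mean of the 11 T cell markers, Klf2 stood at 59.1 and 60.8 in WT cells, 57.5 and 69.6 in heterozygous cells and 167 and 165 in homozygous knockout cells. Satb1 stood at 23.6 and 23.9, 22.5 and 25.4, and 66.9 and 63.1 in the same order. Id3 stood at 31.1 and 37.7, 31.5 and 29.9, and 14.2 and 15.7. For all 3 genes the Cdc42-/- libraries remained apart from the other 4 on this scale. Scaled this way, limma gave log2 fold changes against WT of 1.46 for Klf2 (adjusted p = 0.00758), 1.43 for Satb1 (adjusted p = 0.00706) and -1.17 for Id3 (adjusted p = 0.0122), and 14.3% of all genes were called. The scaling moved the median of all tested genes from 0.01 to 0.43, so these fold changes are read against that shift.

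On the same scale Ccr7, S1pr1, Lef1 and Il7r had both Cdc42-/- libraries above both WT libraries, while Tcf7 and Bach2 overlapped. With Klf2 and Satb1 that made 6 of 9 higher and 1 lower (Id3) without overlap, beside 57.7% and 7.59% of all tested genes on this scale, so the count of higher genes is near the background. Ccr7 stood at 53.9 and 57.7% in WT and 76.5 and 65.9% in Cdc42-/-, and S1pr1 at 70.9 and 66.6% and 92.7 and 81.3%. The fitted log2 fold changes were 0.35 for Ccr7 and 0.34 for S1pr1, against -0.13 and -0.14 in RPKM, and neither passed the test (limma adjusted p = 0.160 and 0.150). Both lay below the shifted median of all genes. Tcf7 stood at 134 and 131% in WT and 135 and 122% in Cdc42-/- (log2 fold change -0.05, limma adjusted p = 0.837), and Bach2 gave -0.30 (adjusted p = 0.338). Tcf7 was thus lower in RPKM in the libraries with the lower T cell marker sums, and the part of that sum in its level was not tested beyond this scaling.

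**Figure D2:**
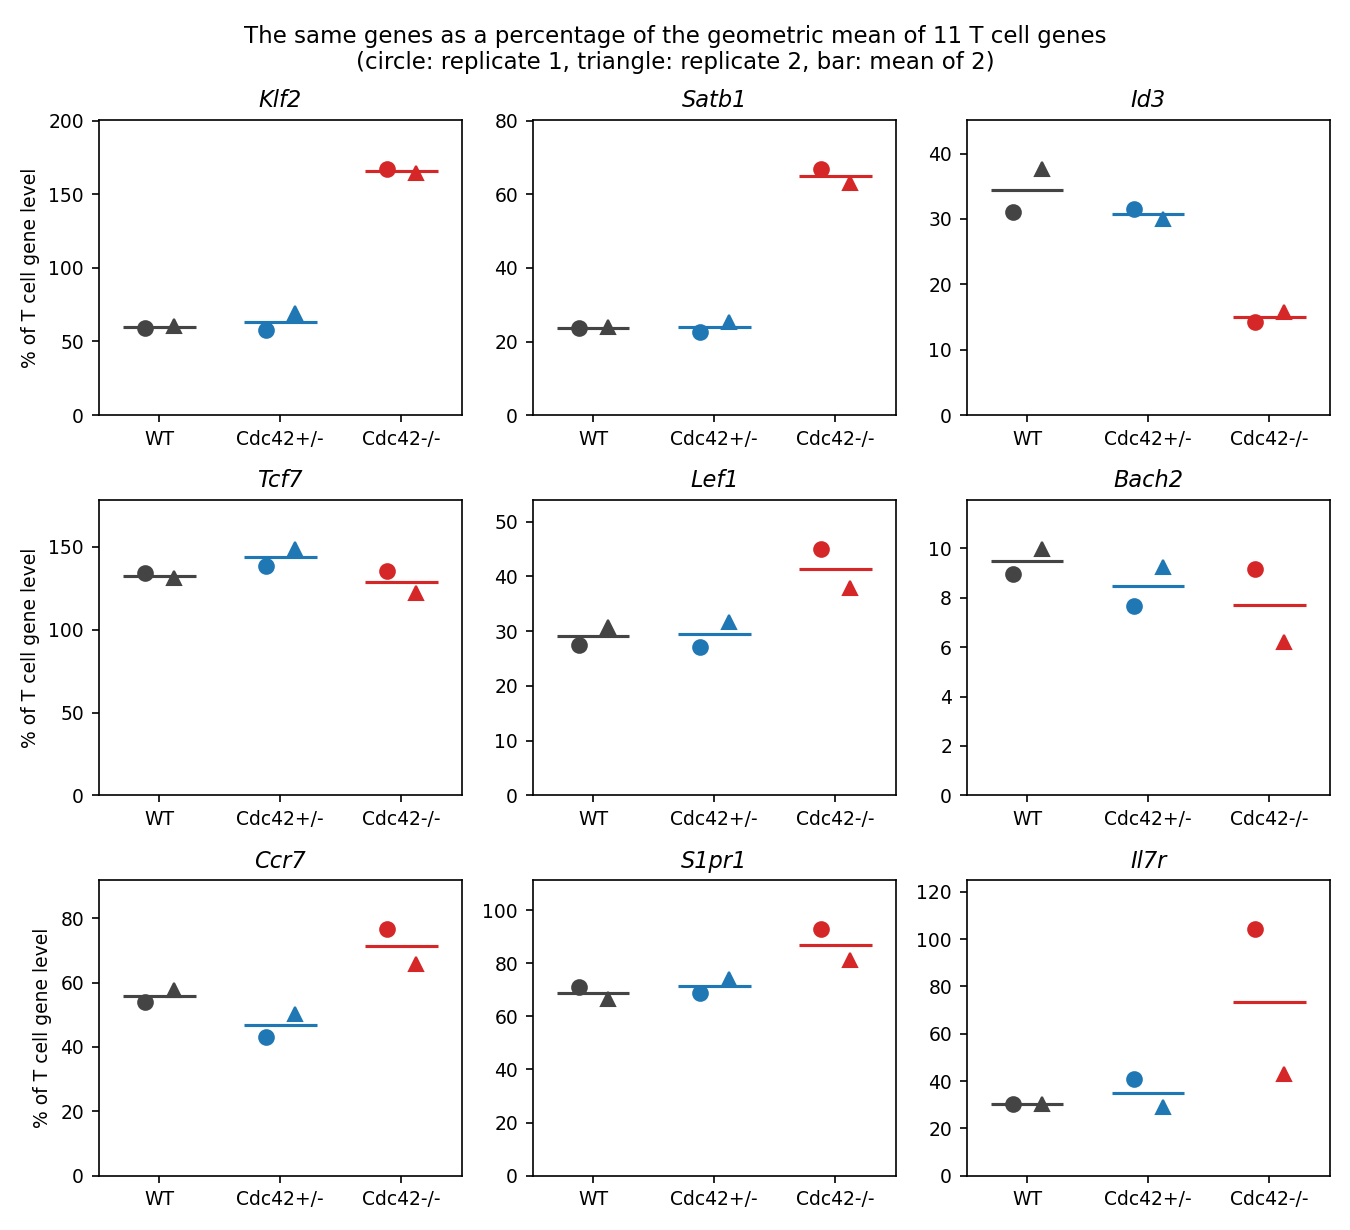
Each of the 9 genes as a percentage of the geometric mean of 11 T cell markers in the same library (y axis, linear from 0) by genotype (x axis). Circles are replicate 1, triangles replicate 2 and bars the mean of 2. The Cdc42-/- libraries agree closely for Klf2 (167 and 165%), Satb1 (66.9 and 63.1%) and Id3 (14.2 and 15.7%), and stay far apart for Il7r (104 and 42.8%).

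Heterozygous Treg cells showed no called change in these genes. In Cdc42+/- against WT limma and voom called 0 of the 9 genes, and 0 of them had an unadjusted p below 0.05 in limma (smallest 0.375). Over all genes 0% were called, with 4.32% at an unadjusted p below 0.05 and 1 gene (0.00817%) called by voom on recovered reads. Limma with array weights called 88 of all genes, and a fit of only these 2 genotypes called 60. The authors' deposited table had 0 of the 9 past 0.05 (smallest adjusted p 0.325) against 2.28% of its genes. Log2 fold changes ran from -0.20 for Ccr7 (95% interval -0.71 to 0.31) to 0.24 for Il7r, with a median of 0.06 against 0.03 for all tested genes. For Klf2 the interval was -0.29 to 0.55, which leaves room for a change smaller than that in Cdc42-/-. Tcf7 was higher and Ccr7 lower in both Cdc42+/- libraries than in both WT libraries, where 43.2% of all tested genes did not overlap either.

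Against Cdc42+/-, the Cdc42-/- libraries gave the same 3 calls among the 9 genes (2 higher, 1 lower), beside 8.22% of all tested genes (4.68% higher, 3.54% lower). This comparison and that with WT share the Cdc42-/- libraries and are not independent. With both Cdc42-/- libraries, the median of the 9 genes was -0.04 and that of all tested genes -0.01, and libraries of 5 of the 9 genes did not overlap, beside 59% of all tested genes.

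Without Cdc42-/- replicate 2, the comparison against Cdc42+/- lies among the 3 Xist-high libraries, with a lone Cdc42-/- library and WT used only for the spread. There limma called 5 of the 9 genes, beside 14.9% of all tested genes. Klf2 gave 1.07 (adjusted p = 0.00383), Satb1 1.15 (0.00197), Il7r 1.26 (0.00818), Tcf7 -0.41 (0.0245) and Id3 -1.40 (0.00197). The median of the 9 genes was 0.29 in that fit, of the opposite sign to that with both libraries, and that of all tested genes was -0.02.

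**Figure D3:**
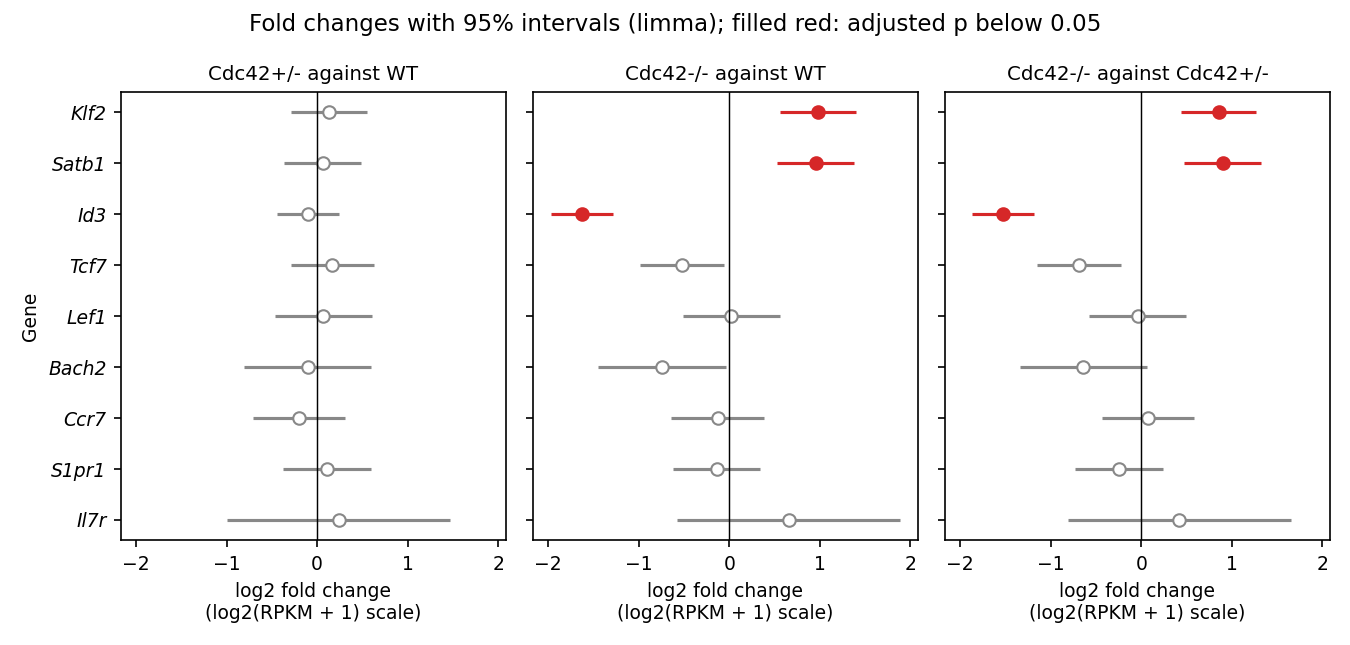
Log2 fold changes (x axis, log2(RPKM + 1) scale) of the 9 genes (y axis) in the 3 comparisons, with 95% intervals from limma. Filled red points have an adjusted p below 0.05. No point is filled for Cdc42+/- against WT, and Klf2 (0.98), Satb1 (0.96) and Id3 (-1.63) are filled for Cdc42-/- against WT.

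Of a list of 19 other genes of naive and resting T cells, 1 rose and 5 fell in Cdc42-/- against WT, beside 6.86% and 4.57% of all tested genes, so the count of higher genes is near the background. The 11 T cell markers had a median log2 fold change of -0.45, with 4 called lower and 0 higher, while the median of the 19 genes was -0.14. The strongest call was Btg1, an antiproliferative gene that keeps T cells quiescent, with 222 and 219 RPKM in WT cells, 220.4 and 217 in heterozygous cells and 109 and 95.8 in homozygous knockout cells (log2 fold change -1.10, limma adjusted p = 0.00310). Both Cdc42-/- values were far below the other 4, and its call was made in all 14 alternatives. Foxp1, a forkhead factor that keeps T cells naive, fell by 0.90 (limma adjusted p = 0.0123), the actin crosslinker Actn1 by 0.96 (adjusted p = 0.0131) and Btg2, the relative of Btg1, by 0.72 (adjusted p = 0.0234).

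The remaining calls of that list, picked out after their values were seen, were Nsg2, which fell by 0.89 (limma adjusted p = 0.0331), and Igfbp4, a binding protein for insulin-like growth factors, which rose by 0.91 (adjusted p = 0.0337). The calls of Foxp1, Actn1 and Btg2 were lost under scaling to T cell markers (adjusted p = 0.0745, 0.0678 and 0.199), and without WT replicate 1 (0.0930, 0.0982 and 0.159) or WT replicate 2 (0.115, 0.121 and 0.128). Those of Foxp1 and Btg2 were also lost without Cdc42+/- replicate 1 (0.0505 and 0.0840) or replicate 2 (0.0502 and 0.0833). Foxo1, the factor upstream of Klf2, measured 76.0 and 73.2 RPKM in WT cells, 74.7 and 87.2 in heterozygous cells and 56.9 and 36.7 in homozygous knockout cells. Its Cdc42-/- libraries were lower without overlap, and its log2 fold change of -0.70 did not pass the test (limma adjusted p = 0.0856). It was -0.39 without Cdc42-/- replicate 2 (adjusted p = 0.0557) and -1.01 without replicate 1 (adjusted p = 0.00101), and 1 of 14 alternatives called it.

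Of 16 genes of effector Treg cells, 9 rose, 0 fell and 7 did not pass the test in Cdc42-/- against WT, beside 6.86% of all tested genes called higher, and voom called 7 of the 16. Fold changes ran from -0.32 to 5.37 on the log2 scale, with a median log2 fold change of 0.83 against 0.01 for all tested genes. Prdm1, the factor Blimp-1 that Bach2 represses, rose from 4.88 and 3.37 RPKM in WT to 15.1 and 15.8 in Cdc42-/-, with 6.31 and 5.88 in Cdc42+/- (log2 fold change 1.70 against WT, limma adjusted p = 0.00443). The Cdc42-/- libraries lay close together above the others, and the call was made in all 14 alternatives. The costimulatory receptor Icos rose by 2.12 (limma adjusted p = 0.00144) and the cytotoxic protease gene Gzmb by 5.37 (limma adjusted p = 0.00135), both called in all 14. Irf4 rose by 1.04 (limma adjusted p = 0.0107, lost without WT replicate 1 at 0.0801 and without WT replicate 2 at 0.101). Cd44, a surface marker of activated T cells, gave 0.18 and did not pass the test (limma adjusted p = 0.752). Its Cdc42-/- libraries, at 19.2 and 43.3 RPKM, lay below and above all others, and it was -0.38 without Cdc42-/- replicate 2 (adjusted p = 0.0759) and 0.75 without replicate 1 (adjusted p = 0.00381), the latter resting on the library with the myeloid marker sum of 1410 RPKM. In Cdc42+/- against WT limma and voom called 0 of the 16, with 8 at an unadjusted p below 0.05 in limma, beside 4.32% of all tested genes. For Cdc42-/- against WT the authors' deposited values put 7 of the 16 past 0.05, all higher, beside 8.66% of genes in either direction. In Cdc42+/- against WT the authors' deposited table also had 7 of the 16 past 0.05, all higher, beside 2.28% of its genes in either direction. Among these 7 were Klrg1 (adjusted p 1.67e-08) and Icos (2.21e-05). Klrg1, an inhibitory receptor of effector cells, gave 1.13 in limma (adjusted p = 0.278) and was called in 4 of 14 alternatives.

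**Figure D4:**
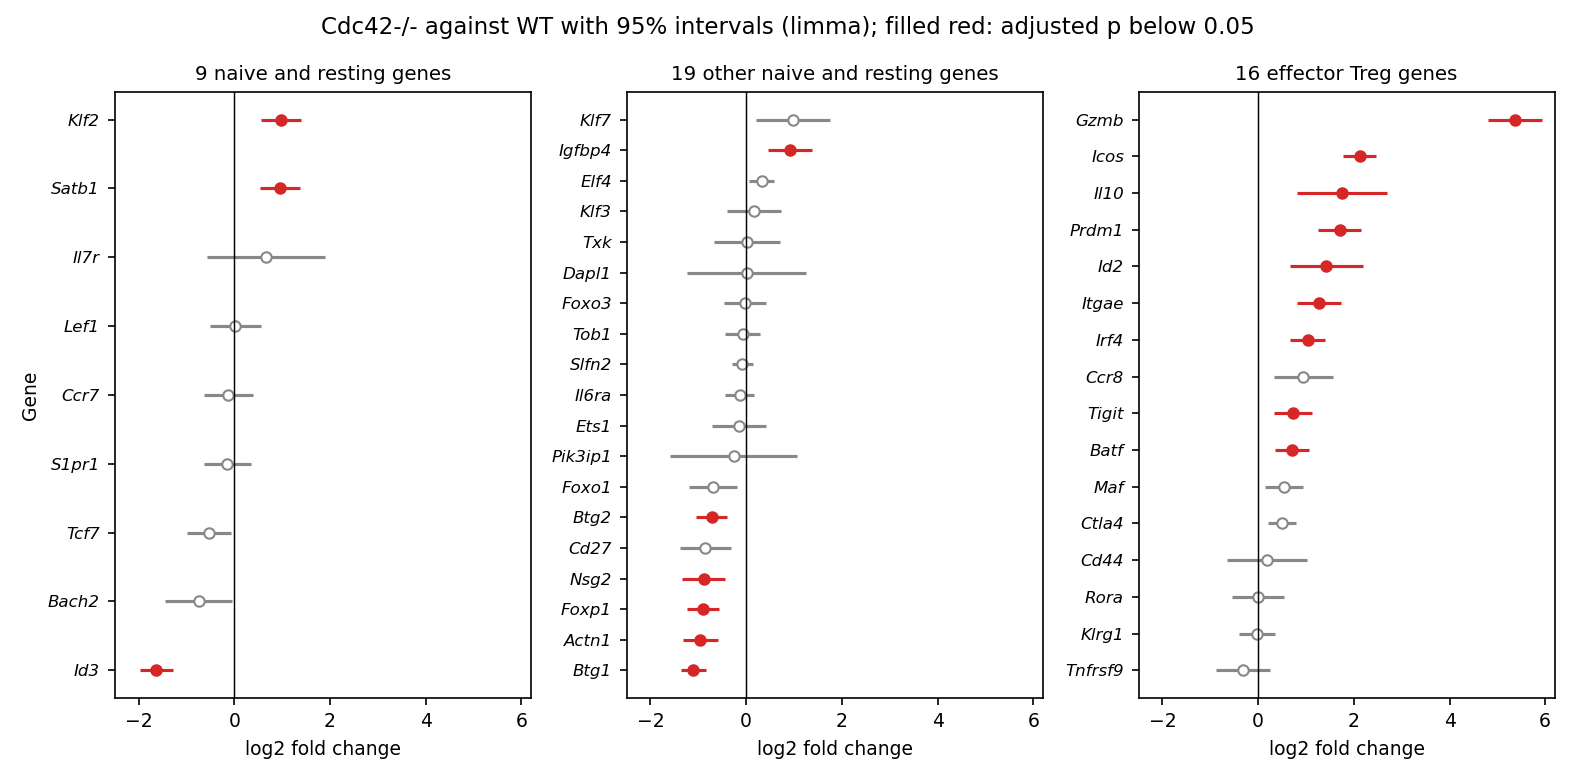
Log2 fold changes in Cdc42-/- against WT (x axis) with 95% intervals from limma, for the 9 genes, 19 other naive and resting genes and 16 effector Treg genes (y axes, 1 gene per line). Filled red points have an adjusted p below 0.05: 2 higher and 1 lower of 9, 1 higher and 5 lower of 19, and 9 higher and 0 lower of 16.

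Partners of each gene were read by role. Among the E proteins and other Id genes, 1 of 5 tested was called, beside 11.4% of all tested genes. This was Id2, the relative of Id3 that effector Treg cells raise, which measured 13.4 and 18.3 RPKM in WT cells, 27.3 and 21.6 in heterozygous cells and 31.8 and 60.1 in homozygous knockout cells. All Cdc42-/- and Cdc42+/- values lay above the WT values. The log2 fold change against WT was 1.42 (limma adjusted p = 0.0389), so Id2 was higher and Id3 lower in the same libraries. The value of 60.1 came from Cdc42-/- replicate 2, the library with the myeloid marker sum of 1410 RPKM. Over the 14 alternatives the log2 fold change of Id2 against WT ran from 0.97 to 1.89. The Id2 call was lost in 6 of 14 alternatives, with adjusted p-values of 0.208 without WT replicate 1, 0.140 without WT replicate 2, 0.0962 without Cdc42+/- replicate 1, 0.0953 without Cdc42+/- replicate 2, 0.0977 with only the 2 genotypes and 0.0526 with no filter on low values.

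Among 6 tested relatives of Klf2 and Satb1, 2 rose and 0 fell, beside 6.86% of all tested genes called higher. These were Klf6 (log2 fold change 0.67, limma adjusted p = 0.0137) and Klf10, which responds to TGF-beta (1.01, adjusted p = 0.0199). Both calls were lost without WT replicate 1 (0.114 and 0.133) or replicate 2 (0.0787 and 0.121) and without Cdc42+/- replicate 1 (0.0612 and 0.0601) or replicate 2 (0.0611 and 0.0585). The 14 tested partners of Tcf7 and Lef1 included beta-catenin, the Groucho genes and the Axin genes. Limma and voom called 0 of them in Cdc42-/- against WT, beside 11.4% (limma) and 1343 (voom) of all 12233 tested genes. Against Cdc42+/- limma called 0 of the 14, beside 8.22% of all tested genes, and voom 2, beside 1183 of 12233. At an unadjusted p below 0.05 each test had 3 against WT and 4 against Cdc42+/-. No share of all genes was taken at that level. Of 8 partners and targets of Bach2, 1 was called, the Prdm1 described above, a share near the 11.4% of all tested genes.

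On the egress side, 1 of 9 tested genes of the sphingosine-1-phosphate pathway rose, the G protein subunit Gnai2 (log2 fold change 0.55, limma adjusted p = 0.0287), a share near the 11.4% of all tested genes. That call was lost without WT replicate 1 (0.114), WT replicate 2 (0.211), Cdc42+/- replicate 1 or Cdc42+/- replicate 2 (0.115 each). Cd69, which pulls S1pr1 off the cell surface, measured 44.1 and 48.4 RPKM in WT cells, 50.5 and 44.0 in heterozygous cells and 119 and 67.4 in homozygous knockout cells. Both Cdc42-/- libraries were above all others, while the test was not passed (log2 fold change 0.94, limma adjusted p = 0.0684). It was passed without Cdc42-/- replicate 1 (0.0136) and without replicate 2 (0.000949).

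Of 9 tested genes that act with Ccr7 or in homing, 1 rose and 1 fell, where 6.86% and 4.57% of all tested genes did so. Cxcr4, the receptor for Cxcl12, measured 15.0 and 11.7 RPKM in WT cells, 24.3 and 24.5 in heterozygous cells and 80.6 and 54.4 in homozygous knockout cells. Its 3 genotypes did not overlap, and it rose by 2.24 on the log2 scale (limma adjusted p = 0.00301), a call made in all 14 alternatives. The integrin chain Itga4 measured 111 and 98.0 RPKM in WT cells, 117 and 120.2 in heterozygous cells and 28.9 and 59.2 in homozygous knockout cells. It fell by 1.31 (limma adjusted p = 0.0457), with -1.81 without Cdc42-/- replicate 2 and -0.80 without replicate 1. That was a call lost in 8 of 14 alternatives, among them those without WT replicate 1 (0.217), WT replicate 2 (0.198), Cdc42+/- replicate 1 or Cdc42+/- replicate 2 (0.116 each).

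Of 10 genes of IL-7 signalling, 0 rose and 2 fell, beside 4.57% of all tested genes called lower. The survival gene Bcl2 measured 70.8 and 67.7 RPKM in WT cells, 54.1 and 57.6 in heterozygous cells and 46.0 and 38.3 in homozygous knockout cells. Its 3 genotypes did not overlap, with the heterozygous libraries between the others. It fell by 0.71 in Cdc42-/- against WT (limma adjusted p = 0.0178), and Socs2, a feedback inhibitor of cytokine receptors, fell by 0.64 (adjusted p = 0.0319). Both calls were lost under scaling to T cell markers (limma adjusted p = 0.236 and 0.568) and with only the 2 genotypes (0.0692 and 0.0945). They were also lost without WT replicate 1, WT replicate 2, Cdc42+/- replicate 1 or Cdc42+/- replicate 2, fits with a lone library in 1 genotype. The Socs2 call was lost as well with a replicate block (limma adjusted p = 0.0532) and with array weights (0.0852).

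Among the 9 genes themselves, other pairs also followed each other. Tcf7 followed Bach2 (Pearson r = 0.930) and Id3 (0.867), and Id3 ran against Klf2 (-0.911) and Satb1 (-0.907). Ccr7 followed Lef1 (0.858), both being highest in Cdc42-/- replicate 1, and S1pr1 followed Tcf7 (0.845), Bach2 (0.841) and Lef1 (0.830). These coefficients are over 6 libraries on the log2 scale, points that share genotype, depth and cell makeup. The genes closest to the mean profile of the 9, among 8460 genes averaging 5 RPKM or more, were Colq, Phf20l1, A930005H10Rik, Mllt6 and Wash1, with r from 0.983 to 0.994. In all 5 the highest library was Cdc42-/- replicate 1 and the lowest Cdc42-/- replicate 2. Colq, for example, measured 6.69 and 6.63 RPKM in WT cells, 5.63 and 7.55 in heterozygous cells and 10.97 and 3.05 in homozygous knockout cells.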

How the data were processed

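RNA-seq of sorted splenic Treg cells was deposited as 2 tables, one per knockout genotype against WT, sharing the WT libraries. The submitters' processing notes name TopHat and mm10; the counting tool, annotation, strand setting and filters are not given in the sources used here. The RPKM values per library were computed by the authors, a unit worked out from the values. The authors also deposited a signal per group (mean of size-factor-scaled reads), a fold change, its log2 value and p-values. Whole reads (100% of values, within 0.01) were recovered from RPKM and group signals.

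The test was limma 3.58.1 (R 4.3.3; lmFit, eBayes with trend) on log2(RPKM + 1), which understates changes of low genes, for genes averaging 0.5 RPKM or more. The 6 libraries of 3 genotypes entered 1 fit, with Benjamini-Hochberg adjustment over all 12233 genes at 0.05. The planned design assumed this unit. With 2 libraries against 2, precision rests on the spread pooled over all 6. Alternatives were another pseudocount (0.1), no filter, upper-quartile and T cell marker scaling, fewer genotypes, voom on recovered reads, array weights, a replicate block and leaving out each library, 14 per result (none for Nsg2 and Igfbp4). The limma step was tested on simulated data.

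The 9 genes and the context lists were chosen with earlier results of these data known. Named are the 9 genes, Cdc42, Foxp3, Foxo1, Foxp1, Cd69, Id2, Prdm1, Cd44, at most 3 further called genes per list and comparison by smallest p, and the 5 nearest profiles; Nsg2 and Igfbp4 are named beyond this rule; 1 planned gene is not reported here. Coordinates and upstream sequences are RefSeq GRCm38.p6.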

Additional observations from a re-analysis of the deposited data

How the results depend on the processing

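In Cdc42-/- against WT the number of the 9 genes called was 3 and ran from 1 to 7 when 1 library was left out, and in Cdc42-/- against Cdc42+/- it was 3 and ran from 0 to 6. Without a Cdc42+/- library, calls against Cdc42+/- were lost for all tested genes, and without a Cdc42-/- library they rose. With only the 2 genotypes compared in the fit, 1 of the 9 genes was called in each comparison. Calls over all genes there fell from 1398 to 536 and from 1006 to 276. Leaving out a WT library gave 259 and 262 calls over all genes against WT, and leaving out a Cdc42+/- library gave 547 and 550, while leaving out a Cdc42-/- library gave 4433 and 2263; array weights gave 885. Cdc42+/- against WT gave 0 of the 9 in all alternatives. The median of the 9 genes turned positive under T cell marker scaling, to 0.35 against WT and 0.48 against Cdc42+/-, where the median of all genes moved to 0.43 and 0.46. With 1 library left out, it ran from -0.44 to 0.19 in Cdc42-/- against WT, from -0.42 to 0.29 against Cdc42+/-, and from -0.02 to 0.14 in Cdc42+/- against WT.

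Deviations of same-numbered libraries correlated at 0.02, 0.20 and -0.03. These values cannot settle whether the replicate numbers pair the libraries, since the labels do not say what a number marks. With the number as a replicate block, Klf2, Satb1 and Id3 stayed called against WT, and 2 of the 9 genes were called against Cdc42+/-, Klf2 being lost at an adjusted p of 0.0581 (limma). Upper-quartile scaling lost the same call at 0.0528.

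Directions reversed as follows. Upper-quartile scaling gave -0.058 for Lef1 against WT, and -0.029 for Irf4 and -0.0018 for Cd69 in Cdc42+/- against WT. Voom gave -0.012 for Lef1 against WT, and -0.046 for Irf4 in Cdc42+/- against WT. T cell marker scaling in Cdc42-/- against WT gave 0.35 for Ccr7, 0.34 for S1pr1, 0.31 for Cdc42 and 0.43 for Klrg1, and -0.023 for Cd69 and -0.049 for Irf4 in Cdc42+/- against WT. Against Cdc42+/- it gave 0.28 for S1pr1, 0.48 for Lef1, 0.39 for Cdc42, 0.16 for Foxp3, 0.35 for Cd44, 0.12 for Bcl2 and 0.48 for Socs2.

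With 1 library left out, values in Cdc42-/- against WT ran from -0.44 to 0.19 for Ccr7, -0.44 to 0.16 for S1pr1, -0.30 to 0.35 for Lef1, -0.18 to 1.5 for Il7r, -0.42 to 0.081 for Cdc42, -0.38 to 0.75 for Cd44 and -0.20 to 0.15 for Klrg1. Against Cdc42+/- they ran from -0.24 to 0.39 for Ccr7, -0.55 to 0.055 for S1pr1, -0.37 to 0.29 for Lef1, -0.42 to 1.26 for Il7r, -0.39 to 0.11 for Cdc42, -0.74 to 0.40 for Cd44, -0.87 to 0.13 for Foxp3 and -0.12 to 0.048 for Socs2. In Cdc42+/- against WT they ran from -0.0042 to 0.48 for Il7r, -0.0012 to 0.26 for Klf2, -0.23 to 0.022 for Id3, -0.021 to 0.14 for Satb1, -0.23 to 0.017 for Bach2, -0.041 to 0.17 for Lef1, -0.16 to 0.045 for Actn1, -0.067 to 0.13 for Cd69, -0.071 to 0.0086 for Cdc42 and -0.16 to 0.16 for Irf4. The cause of these changes was not tested.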
